A study of Mus musculus with 6 samples.

Results

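This account covers 31 genes known for their role in B lymphocytes, measured in CD8+ T cells that had been sorted from mouse tumor and spleen. The genes were named by symbol, immunoglobulin genes were left out, and some were selected on their large falls in this same comparison of tumor with spleen. Their tumor and spleen values are therefore given as a description. Counts of these genes past the threshold of a fit over all genes are printed beside the share of all genes that passed it, and are not a test of the 31. All 31 symbols were found among the 55335 gene identifiers of the count table, and all 31 were among the 19783 genes that passed the filter on low counts. At least 1 tumor library had under 10 counts for 16 of them, which passed through their spleen levels, whereas no spleen library did for any.

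The P14 TIL group was made up of tumor-infiltrating P14 cells, CD8+ T cells with a transgenic receptor for the GP33-41 peptide, sorted from B16-GP33-41 melanomas. The P14 Sp group, its control, was made up of P14 cells sorted from spleens of tumor-bearing mice. Both groups came from C57BL/6 mice labelled as 10 weeks old, with the genotype P14 TCR transgenic, and the cells had been transferred on day 11 after tumor implantation. Each group held 3 RNA-seq libraries, tumor cells alone had passed through Percoll before the sort, and the labels do not say whether libraries came from separate mice.

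Mature B cells carry a surface immunoglobulin whose signal passes through the paired chains CD79A and CD79B to the kinases BLK, SYK and BTK and the adaptor BLNK. The complement receptor CR2 strengthens this signal, while CD22, CD72, SIGLECG and FCGR2B dampen it. The factors EBF1 and PAX5 set and hold B cell identity, and the receptors BAFFR and TACI take up survival signals. Spleen is rich in B cells, and most of these genes serve B cells chiefly.

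Library totals were 36464221, 38263483 and 36198681 counts in the P14 TIL group and 36565214, 37650999 and 35095261 in the P14 Sp group. Levels are in CPM, a count divided by its library total and scaled in the usual way, and a count of 0 allows up to 0.0855 CPM per library. As a check of the labelled cell type, 8 CD8 T cell identity genes summed to 4167 to 4325 CPM in the TIL libraries and 4633 to 4683 CPM in the spleen libraries (3 were lower and 2 higher by the test used below). The CD8 chain genes went opposite ways. Cd8a, named after its values were seen, was higher in TIL at 177% of spleen, and Cd8b1 was lower at 64.0%. Codes in the sample descriptions end alike within each tissue and differently between tissues, so a batch, if these mark one, and the tissue cannot be told apart.

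The 31 genes together held 321, 324 and 307 CPM in the TIL libraries and 1461, 1471 and 1465 CPM in the spleen libraries. Means with their SD over 3 libraries were 317 ± 9.49 CPM for TIL and 1466 ± 5.5 CPM for spleen, so the TIL level was 21.7% of the spleen level. The libraries of the 2 tissues stand far apart and those of each tissue lie close together. In bulk samples, fewer cells of a type and less RNA per cell cannot be told apart. The tetraspanin gene Cd37 alone made up 37.3% of the summed level in TIL and 22.1% of that in spleen.

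Single genes differed widely in how much of the spleen level remained in TIL, from 0 counts for Cr2 to 97.8% for Pou2f2. Levels were under 1% of spleen for 15 genes, between 1% and 10% for 7, and at 10% or more for 9. These limits were chosen after the values were seen. Of 19783 genes tested, 35.9% were lower in TIL (edgeR quasi-likelihood fit, p adjusted by Benjamini-Hochberg, threshold 0.05) and 34.8% were higher. By that threshold, 29 of the 31 genes were lower and 0 were higher, with Cd83 and Pou2f2 the 2 that were not called. None was higher at an unadjusted p below 0.05, or by DESeq2 or limma-voom. Values of the 2 tissues did not overlap for 74.5% of the tested genes and for 30 of the 31, the exception being Pou2f2. The genes were chosen from this contrast, so nothing is read from these counts. The median log2 fold change was -5.89 over the 31 genes and -0.02 over all tested genes, and placing Cr2 at its lower bound left the first at -5.89.

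**Figure D1:**
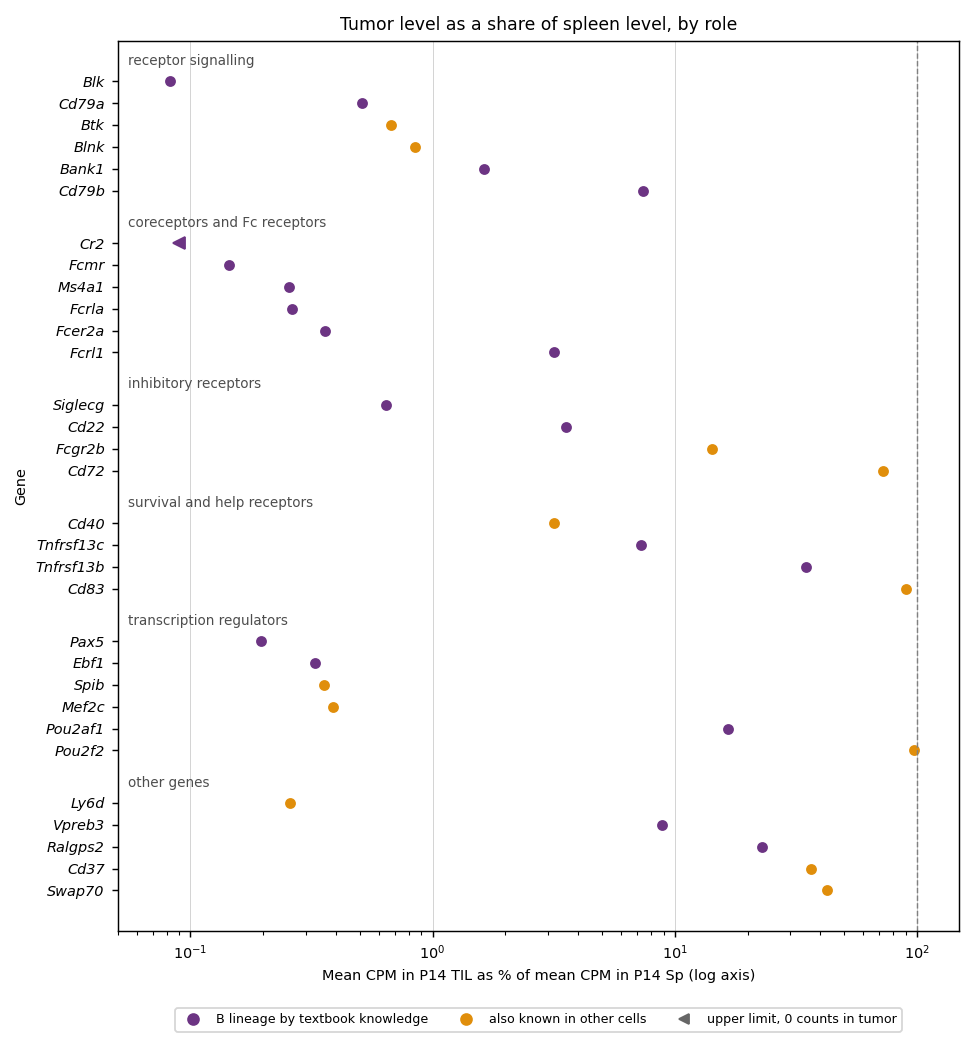
TIL level of each of the 31 genes as a percentage of its spleen level (log axis, means of 3 libraries per tissue), grouped by role; the arrow marks Cr2, which had 0 counts in TIL. Genes of the same role lie far apart, for example Cd79a at 0.512% and Cd79b at 7.43%, and Pou2f2 at 97.8% and Pax5 at 0.196%.

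Promoter sequence was looked up for the 31 genes in the set of RefSeq promoters at hand (build GRCm38.p6), where 25 had an entry, with 32 promoters in all. Ly6d, Ms4a1, Cd83, Cd40, Blk and Cd79b had no entry in that set and were not searched. The 250 bases before each start were searched on both strands for 3 motifs of B cell and myeloid factors. The octamer ATGCAAAT, the site of OCT1 and OCT2, was found at Blnk (-130) and Vpreb3 (-45). That is 2 of 25 genes and 2 of their 32 promoters, and it was found in 1.60% of all 32851 promoters. The palindromic EBF1 motif was found at Cd22 (-49), and in 0.779% of all promoters. The PU box GAGGAAGT, a site of PU.1 and SPIB, was found at Cd37 (-25), Cd72 (-49) and Fcrl1 (-15), and in 2.44% of all promoters. Positions count back from the annotated start. A match describes these letters and is no evidence of binding. Shown are the promoters of Cr2, which had 0 counts in TIL, of Spib, which had 0.357% of its spleen level, and of Fcrl1 and Cd72, which share the PU box while their TIL levels were 3.18% and 72.8% of spleen. They are written 5′ to 3′ on the strand of the gene, with the PU box (here on the opposite strand, so that it reads ACTTCCTC) in capitals. Their positions are chr1:195176720-195176969 (minus strand) for Cr2, chr7:44532072-44532321 (minus strand) for Spib, chr3:87376137-87376386 (plus strand) for Fcrl1 and chr4:43454627-43454876 (minus strand) for Cd72.
Cr2: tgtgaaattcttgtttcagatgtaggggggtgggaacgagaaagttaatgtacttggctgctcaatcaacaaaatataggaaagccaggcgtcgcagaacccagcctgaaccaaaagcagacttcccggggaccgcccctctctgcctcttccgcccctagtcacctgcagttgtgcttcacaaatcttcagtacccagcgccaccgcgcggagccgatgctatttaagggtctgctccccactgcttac
Spib: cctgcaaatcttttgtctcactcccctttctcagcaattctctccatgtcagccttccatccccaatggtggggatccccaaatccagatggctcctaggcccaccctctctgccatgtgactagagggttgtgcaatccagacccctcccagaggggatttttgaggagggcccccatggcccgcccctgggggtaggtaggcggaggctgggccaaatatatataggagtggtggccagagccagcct
Fcrl1: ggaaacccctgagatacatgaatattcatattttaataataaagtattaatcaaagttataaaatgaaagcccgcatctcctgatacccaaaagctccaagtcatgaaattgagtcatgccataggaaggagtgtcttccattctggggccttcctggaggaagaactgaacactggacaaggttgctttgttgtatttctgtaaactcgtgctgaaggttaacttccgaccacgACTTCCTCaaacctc
Cd72: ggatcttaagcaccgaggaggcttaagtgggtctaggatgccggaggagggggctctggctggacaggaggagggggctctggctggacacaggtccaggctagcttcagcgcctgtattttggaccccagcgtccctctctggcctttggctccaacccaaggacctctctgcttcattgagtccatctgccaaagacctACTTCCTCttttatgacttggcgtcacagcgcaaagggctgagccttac

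The 6 genes of B cell receptor signalling were at a median of 0.761% of spleen in TIL. Cd79a (ENSMUSG00000003379.7, chr7:24897381-24902197, mm10), the first signalling chain, had 0.768, 0.627 and 0.414 CPM in the TIL libraries and 119, 118 and 117 CPM in the spleen libraries. Cd79b (ENSMUSG00000040592.11, chr11:106311341-106314762), the partner chain, had 8.31, 7.19 and 6.80 CPM in the TIL libraries and 99.1, 102 and 98.7 CPM in the spleen libraries. The paired chains, which act as one unit in B cells, thus stood at 0.512% and 7.43% of their spleen levels, and the log2 fold changes were -7.57 (SE 0.12) and -3.72 (SE 0.09). The ratio of Cd79a to Cd79b counts was 0.0924, 0.0873 and 0.0610 in the TIL libraries, against 1.20, 1.15 and 1.18 in the spleen libraries. In spleen the ratio varied little, and every TIL library lay far below it. Per kilobase of exon, Cd79a stood at 0.193% to 0.367% of the CD3 chain gene Cd3e in the TIL libraries and at 51.4% to 53.0% in the spleen libraries. For Cd79b the same share was 3.22% to 4.04% in the TIL libraries and 44.3% to 45.7% in the spleen libraries.

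Blk, a Src family kinase of B cells, had 0.0274, 0 and 0.0276 CPM in the TIL libraries and 24.0, 20.3 and 22.3 CPM in the spleen libraries. That is 2 counts over the TIL libraries and 2425 over the spleen libraries, a ratio of shares of 1230 with an exact 95% counting interval of 340 to 10166. Btk, the kinase whose loss stops B cell development in humans, had 0.137, 0.0784 and 0.0276 CPM in the TIL libraries and 11.8, 12.4 and 11.9 CPM in the spleen libraries. Blnk, the adaptor that links SYK to BTK, had 0.165, 0.131 and 0.193 CPM in the TIL libraries and 20.0, 19.4 and 18.3 CPM in the spleen libraries. All 3 were below 1% of spleen. Bank1, an adaptor of B cells, was at 1.63% of its spleen level, with 0.631, 0.889 and 0.332 CPM in the TIL libraries and 37.0, 36.5 and 39.7 CPM in the spleen libraries. The tissues lay apart. Btk and Blnk are also used by myeloid cells, and macrophage markers moved alongside. All 12 macrophage genes tested were lower, beside 35.9% of all tested genes. The 12 summed to 30.2 to 30.9 CPM in the TIL libraries and 268 to 278 CPM in the spleen libraries. Some of the 12 had few counts in TIL and passed the filter on low counts through their spleen levels. For those, a call of higher was hardly possible. None of the 12 was at 0 in all libraries of a tissue, and their part in the Btk and Blnk values was not tested.

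Coreceptors and Fc receptors of B cells showed the lowest TIL levels among the roles, with a median of 0.259% of spleen over 6 genes. Cr2, the receptor for complement fragments on follicular and marginal zone B cells, had 0 counts in each TIL library and 32.8, 28.6 and 28.9 CPM in the spleen libraries. The 3292 spleen counts put Cr2 at least 1114-fold lower in TIL when 3 counts are allowed over the TIL libraries. Fcmr, the receptor for IgM, had 0.0823, 0.0784 and 0.0829 CPM in the TIL libraries, which is 3 counts in each, and 57.2, 55.6 and 56.0 CPM in the spleen libraries. Ms4a1, which encodes CD20, had 0.0823, 0.105 and 0.249 CPM in the TIL libraries and 58.6, 56.8 and 54.7 CPM in the spleen libraries. Its log2 fold change of -8.56 (SE 0.16) became -9.14 without TIL replicate 3, the highest of the TIL libraries. Fcer2a, the low-affinity IgE receptor CD23, had 0.110, 0.105 and 0.138 CPM in the TIL libraries and 31.8, 32.5 and 33.2 CPM in the spleen libraries. CR2 and CD23 are also found on follicular dendritic cells, whose markers were near 0 in TIL: 2 of 2 tested genes of 4 in the table were lower, Cxcl13 and Clu were at 0 in every TIL library, and the sums were 0.0523 to 0.0829 CPM in the TIL libraries and 6.13 to 7.33 CPM in the spleen libraries. With any 1 TIL library left out, 4 of the 4 were tested and lower. In spleen, Clu alone held most of the summed level, with a mean of 4.97 CPM, while Cxcl13 had 29 counts over the libraries. The follicular dendritic cell genes tested passed the filter on low counts through their spleen levels, so a call of higher was hardly possible. The part of these cells in the Cr2 and Fcer2a values was not tested.

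Fcrla, an Fc receptor-like protein kept inside B cells, had 1 count in each TIL library, 3 in all, against 1124 over the spleen libraries. The ratio of shares was 380, with an exact 95% counting interval of 130 to 1846. Fcrl1, a surface protein of the same family that B cells use, was less low, at 0.329, 0.261 and 0.332 CPM in the TIL libraries and 9.05, 10.3 and 9.60 CPM in the spleen libraries. Fcrl1 was thus at 3.18% of spleen and Fcrla at 0.263%. Fcrla overlaps the pseudogene Gm2962 on the same strand, which had 1140 counts over the TIL libraries and 1064 over the spleen libraries, so how reads were split between them is uncertain.

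Inhibitory receptors spread over 2 orders of magnitude in their TIL share. Siglecg, a sialic acid receptor that restrains B cell calcium signals, was lowest at 0.641% of spleen, with 0.192, 0.209 and 0.138 CPM in the TIL libraries and 26.8, 28.2 and 29.1 CPM in the spleen libraries. Cd22, a sialic acid receptor with the same effect, had 3.21, 2.87 and 2.87 CPM in the TIL libraries and 85.7, 83.7 and 81.7 CPM in the spleen libraries. It was at 3.57% of spleen, and its gene overlaps the antisense model Gm29439, which had 57 counts over the TIL libraries and 1264 over the spleen libraries. Fcgr2b, the inhibitory IgG receptor, also found on myeloid cells, was at 14.3% of spleen, with 1.37, 1.02 and 1.16 CPM in the TIL libraries and 8.37, 7.70 and 8.80 CPM in the spleen libraries. Cd72, a lectin-like receptor that B cells share with other leukocytes, had 58.0, 54.6 and 54.9 CPM in the TIL libraries and 77.7, 79.9 and 72.5 CPM in the spleen libraries. Its tissues did not overlap, yet its TIL level was 72.8% of spleen. Cd72 overlaps Tesk1 on the opposite strand, which had 7218 counts over the TIL libraries and 7841 over the spleen libraries. Whether counting used the strand is not stated in the sources at hand, so reads of such pairs cannot be told apart.

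**Figure D2:**
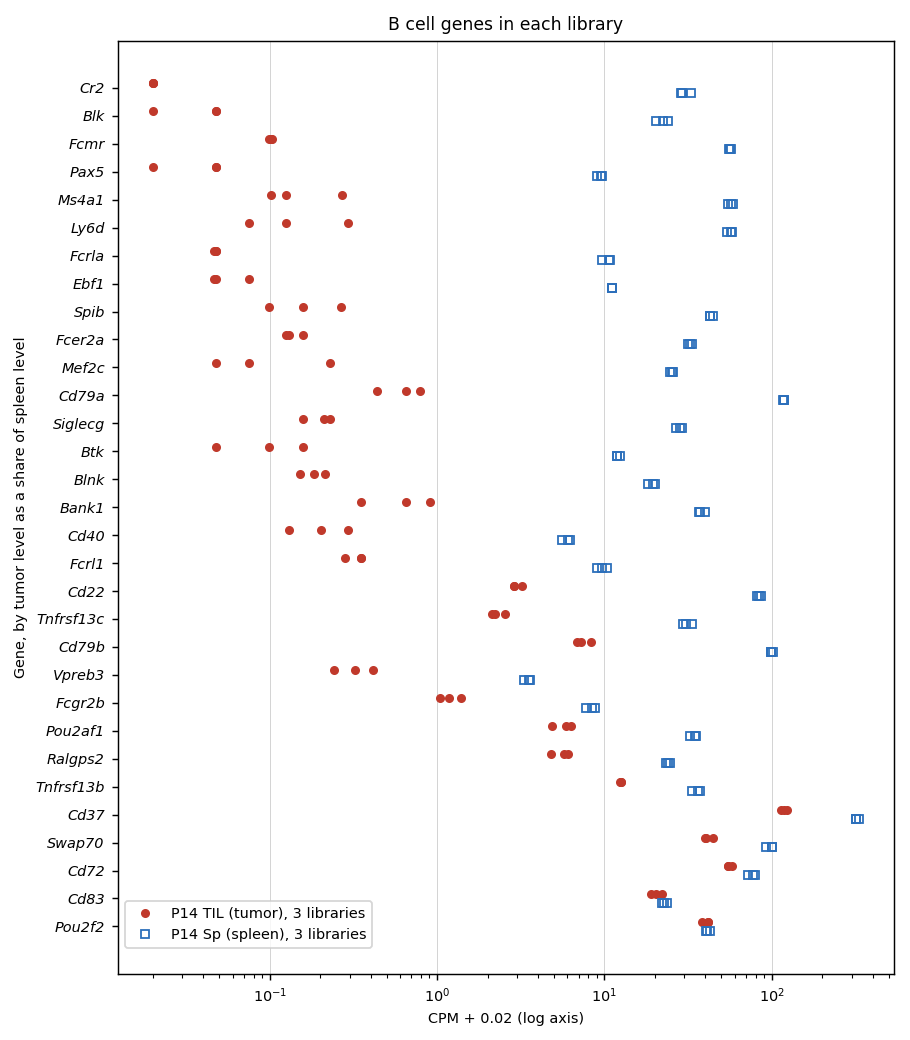
Level of each of the 31 genes in every library (CPM, log axis) with 0.02 added so that libraries at 0 counts can be drawn; circles are TIL and squares are spleen libraries. Spleen points of a gene lie close together, TIL points of the lowest genes spread with their counts of 0 to 28, and the tissues overlap for Pou2f2.

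The 4 receptors for survival signals and T cell help were at a median of 21.2% of spleen in TIL. Tnfrsf13c, the BAFF receptor that mature B cells need to survive, had 2.52, 2.2 and 2.1 CPM in the TIL libraries and 29.6, 33.2 and 30.7 CPM in the spleen libraries. Tnfrsf13b, which encodes the BAFF and APRIL receptor TACI, had 12.5, 12.4 and 12.6 CPM in the TIL libraries and 33.3, 37.3 and 36.2 CPM in the spleen libraries. The first was at 7.29% of spleen and the second at 35%, with 3 TIL libraries of nearly equal level. Cd40, the receptor through which T cells help B cells and dendritic cells, was at 3.18% of spleen, with 0.274, 0.183 and 0.111 CPM in the TIL libraries and 6.07, 6.21 and 5.56 CPM in the spleen libraries. Cd83, a surface protein of activated dendritic cells and lymphocytes, had 20.4, 18.9 and 22.1 CPM in the TIL libraries and 22.2, 23.6 and 22.5 CPM in the spleen libraries. The TIL values of Cd83 lay just under the spleen values, and its log2 fold change was -0.13 (SE 0.08). Cd40 and Cd83 mark dendritic cells too. All 10 genes of the dendritic cell and MHC class II list were lower, beside 35.9% of all tested genes. Their sums were 82.2 to 88.7 CPM in the TIL libraries and 1827 to 1870 CPM in the spleen libraries. Clec9a was at 0 in all TIL libraries. Some of the 10, Clec9a among them, passed the filter on low counts through their spleen levels, so a call of higher was hardly possible. The part of dendritic cells in the Cd40 and Cd83 values was not tested. B cells also use the MHC class II genes of that list.

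Of 6 transcription regulators, 4 were at under 1% of spleen in TIL, and Pou2af1 and Pou2f2 were not. Pax5, the keeper of B cell identity, had 2 counts over the TIL libraries and 1023 over the spleen libraries, a ratio of shares of 519 with an exact 95% counting interval of 143 to 4292. Ebf1, which acts with PAX5 from early B cell stages on, had 0.0548, 0.0261 and 0.0276 CPM in the TIL libraries and 11.0, 11.0 and 11.1 CPM in the spleen libraries. Spib, an Ets factor of B cells and plasmacytoid dendritic cells, had 0.247, 0.0784 and 0.138 CPM in the TIL libraries and 42.7, 42.9 and 44.3 CPM in the spleen libraries. Mef2c, a MADS box factor of B cells and several other tissues, had 0.0274, 0.209 and 0.0553 CPM in the TIL libraries and 25.6, 25.3 and 24.6 CPM in the spleen libraries. Each spleen library was far above every TIL library, and Mef2c had most of its few TIL counts in replicate 2. Its log2 fold change of -7.91 (SE 0.22) became -9.11 without that library.

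Pou2af1, which encodes the coactivator OCA-B, had 5.90, 6.27 and 4.86 CPM in the TIL libraries and 32.6, 34.9 and 35.1 CPM in the spleen libraries, 16.6% of spleen. Pou2f2, which encodes OCT2, the octamer-binding factor that OCA-B works with, had 41.5, 41.6 and 38.3 CPM in the TIL libraries and 40.2, 40.9 and 43.0 CPM in the spleen libraries. OCT2 and its coactivator thus differed, since the Pou2f2 libraries of both tissues overlap and those of Pou2af1 lie apart. The log2 fold changes were -0.00 (SE 0.07) for Pou2f2 and -2.56 (SE 0.10) for Pou2af1. Pou2f2 overlaps the lincRNA D930028M14Rik on the opposite strand, which had 28 counts over the TIL libraries and 231 over the spleen libraries. Plasmacytoid dendritic cell genes were of mixed direction. Of 6 tested, 4 were lower and 1 was higher, beside 35.9% and 34.8% of all tested genes. Siglech and Klk1 were at 0 in every TIL library, with 48 and 14 counts over the spleen libraries, and Klk1 was not tested. Sums were 120 to 127 CPM in the TIL libraries and 135 to 139 CPM in the spleen libraries. Bst2, the most abundant in both tissues, held most of these sums, with means of 95.7 CPM in TIL and 112 CPM in spleen. Pacsin1 was the higher gene, with means of 24.5 CPM in TIL and 11.8 CPM in spleen. Tcf4 was lower, with means of 1.59 CPM in TIL and 10.7 CPM in spleen (both named after their values were seen). The part of plasmacytoid dendritic cells in the Spib values was not tested.

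Among the remaining genes, Ly6d, a surface marker of early B cell commitment that plasmacytoid dendritic cells also carry, was lowest. It had 0.274, 0.105 and 0.0553 CPM in the TIL libraries and 53.9, 57.3 and 57.8 CPM in the spleen libraries. Its log2 fold change of -8.55 (SE 0.19) became -9.36 without TIL replicate 1. Vpreb3, a relative of the surrogate light chain, was at 8.84% of spleen and was low in both tissues, at 0.302, 0.392 and 0.221 CPM in the TIL libraries and 3.28, 3.51 and 3.56 CPM in the spleen libraries. Ralgps2, an exchange factor for Ral proteins, was at 22.9% of spleen, with 4.74, 6.06 and 5.72 CPM in the TIL libraries and 23.4, 24.6 and 24.0 CPM in the spleen libraries. Swap70, a Rac-binding protein known from B cells, had 40.3, 44.5 and 39.9 CPM in the TIL libraries and 100.04, 99.97 and 91.8 CPM in the spleen libraries. Cd37, a tetraspanin of B cells, T cells and other leukocytes, had 119, 123 and 113 CPM in the TIL libraries and 318, 320 and 332 CPM in the spleen libraries. These last 2, at 42.7% and 36.6% of spleen, were among the most abundant of the 31 genes in TIL. Swap70 overlaps the antisense model Gm45515, which had 844 counts over the TIL libraries and 2008 over the spleen libraries. Cd37 overlaps Tead2 on the opposite strand, which had 124 counts over the TIL libraries and 291 over the spleen libraries.

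Sorted by what is known of their use, 19 of the genes belong chiefly to the B lineage and 12 are also used by other cells. Cr2 and Fcer2a were counted with the B lineage, although both are also found on follicular dendritic cells. The B lineage genes had a median of 0.641% of spleen in TIL, and 10 of the 19 were under 1% and 3 at 10% or more. Of the 12 genes also used by other cells, 5 were under 1% and 6 were at 10% or more, with a median of 8.73%. Summed, the B lineage genes were at 38.8 ± 1.61 CPM in TIL and 734 ± 2.35 CPM in spleen (n = 3 libraries per tissue, SD). The other 12 were at 279 ± 7.91 CPM in TIL and 732 ± 4.44 CPM in spleen. The genes also used by other cells thus made up most of what TIL had of the 31, while the 2 sets were nearly equal in spleen. No difference between the sets was tested.

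Levels among the genes were compared per kilobase of exon. In TIL the first was Cd37 at 33.6 CPM per kilobase, followed by Cd72 at 16.3, Cd83 at 7.96, Cd79b at 5.19, Swap70 at 5.13 and Pou2f2 at 4.91. In spleen the first was Cd37 at 91.8 CPM per kilobase, followed by Cd79a at 80.8, Ly6d at 75.7, Cd79b at 69.9 and Fcmr at 32.4. Cd79a was thus 2nd in spleen, while in TIL, at 0.414 CPM per kilobase, it stood 12th of 31. In spleen, the median coefficient of variation between libraries was 3.88% over the 31 genes. It was 3.87% over the 12972 tested genes whose spleen CPM lay between the lowest and the highest of the 31, which were not matched to them in level.

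B cell pathway genes outside the 31 were described from 3 lists of 41 genes. Of all tested genes, 35.9% were lower and 34.8% higher. A few of the 41 had few counts in TIL and passed the filter on low counts through their spleen levels. For those, a call of higher was hardly possible. Of 17 genes of the B cell receptor pathway, 13 were lower and 0 were higher in TIL, with a median log2 fold change of -0.80 beside -0.02 over all tested genes. None was higher at an unadjusted p below 0.05, or by DESeq2 or limma-voom. Syk, the kinase that binds the CD79 chains, had 1.86, 1.86 and 2.27 CPM in the TIL libraries and 63.9, 64.6 and 61.3 CPM in the spleen libraries, a log2 fold change of -4.96 (SE 0.09, edgeR adjusted p = 5.8e-12). Lyn, a Src family kinase that B cells share with myeloid cells, had a log2 fold change of -2.63 (SE 0.08, edgeR adjusted p = 4.1e-10). Without TIL replicate 3, the 2 genes Pik3ap1 and Ptpn6 passed the threshold as higher, at 0.20 and 0.12 on the log2 scale (both named after their values were seen).

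Of 12 B cell transcription factor genes, 7 were lower and 4 were higher, with a median of -0.21. Spi1, which encodes PU.1 of myeloid and B cells, was at -4.35 (SE 0.12, edgeR adjusted p = 1.1e-10), and Bcl11a, a factor of early lymphocytes and plasmacytoid dendritic cells, was at -8.18 (SE 0.33, edgeR adjusted p = 2.3e-09). All 5 TIL counts of Bcl11a were in replicate 2, against 1566 counts over the spleen libraries, and without that replicate it was at least 347-fold lower in TIL, with 3 counts allowed over the other TIL libraries. Higher were Irf4, a factor of activated lymphocytes, at 2.56 (SE 0.06, edgeR adjusted p = 3.9e-11), and Irf8, a factor of B, myeloid and activated T cells, at 2.13 (SE 0.07, edgeR adjusted p = 3.3e-10). Of 12 genes of surface and positioning, 11 were lower and 1 was higher, with a median of -2.55. Ly86, the partner of the surface receptor RP105, was at -5.44 (SE 0.19, edgeR adjusted p = 8.2e-10), and Dtx1, a Notch target of marginal zone B cells and T cells, was at -3.77 (SE 0.11, edgeR adjusted p = 1.8e-10). Fcrl5 had 0 counts in all TIL libraries and was at least 146-fold lower. Cd9, a tetraspanin of several cell types, was the 1 that was higher, at 0.30 (SE 0.09, edgeR adjusted p = 0.011), and without spleen replicate 1 it did not pass (adjusted p = 0.052).

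**Figure D3:**
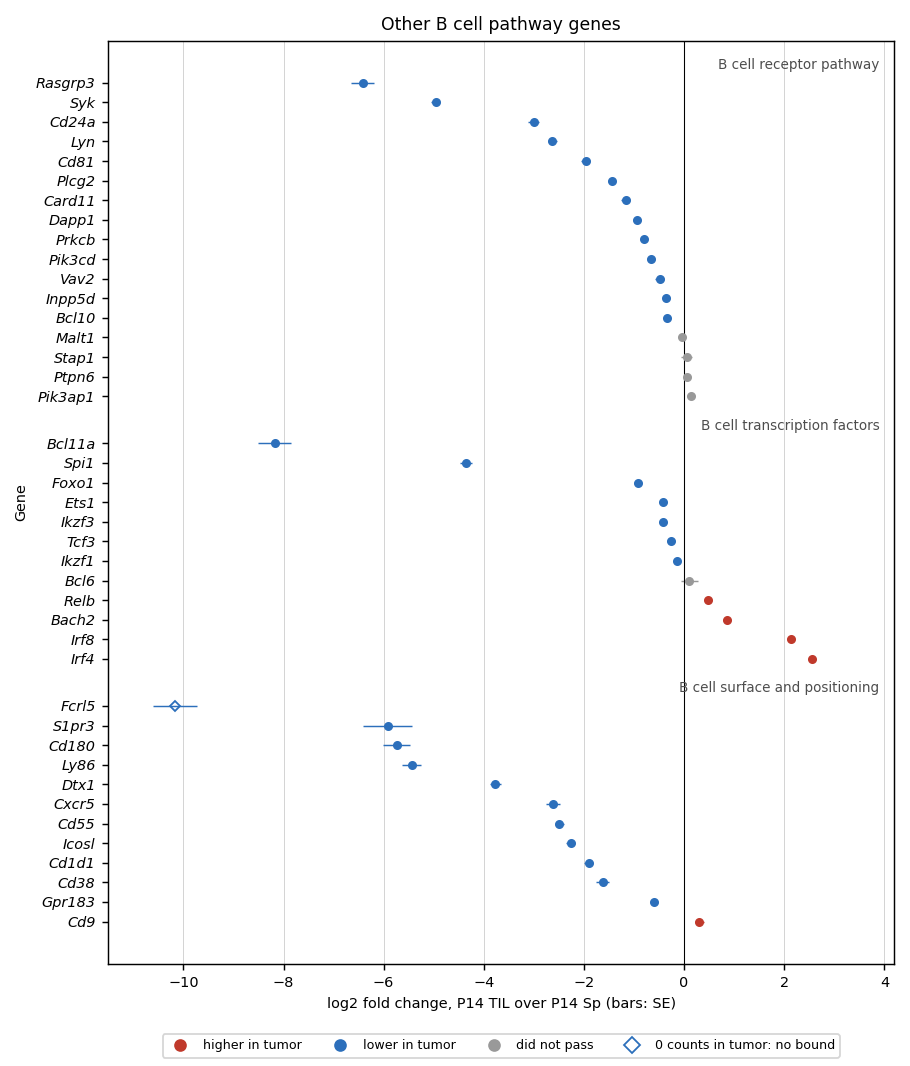
Log2 fold change (TIL over spleen, with SE) of 41 other B cell pathway genes in 3 lists, with genes that were higher, lower or did not pass in separate colours. The open diamond is Fcrl5, at 0 counts in TIL, whose fitted value is no bound, and Bcl11a, at -8.18, rests on 5 TIL counts in 1 library; Irf4 and Irf8 lie furthest to the right, at 2.56 and 2.13.

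Immunoglobulin constant genes, which are not among the 31, were lower for 6 of 6 tested, beside 35.9% of all tested genes. Their sums were 272 to 275 CPM in the TIL libraries and 1369 to 1396 CPM in the spleen libraries. Some of the 6 had few counts in TIL and passed the filter on low counts through their spleen levels. For those, a call of higher was hardly possible. Ighm, the IgM heavy chain gene and the most abundant of them in both tissues, was at 33.5% of its spleen level. Igkc, the kappa light chain gene, named after its values were seen, was at 0.228%. Of B cell stage markers, germinal centre genes were lower for 4 of 5 tested. That count was 2 without TIL replicate 1 or 2, or spleen replicate 1 or 2. Gcsam and Rgs13 were at 0 in every TIL library, with 187 and 29 counts over the spleen libraries, and Rgs13 was not tested. Some of the tested genes, Gcsam among them, passed the filter on low counts through their spleen levels. Plasma cell genes were lower for 5 and higher for 3 of 8 tested. Tnfrsf17, which was not tested, was at 0 in every TIL library and had only 3 counts over the spleen libraries. Precursor B cell genes were lower for 1 and higher for 1 of 2 tested, with Rag1, Rag2 and Igll1 at 0 in every TIL library. In spleen these 3 were at or near 0 too, with 4 counts of Rag1, 0 of Rag2 and 5 of Igll1 over the libraries.

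Markers of platelets and neutrophils were lower in TIL as well. Platelet genes were lower for 5 of 5 tested, with sums of 0.287 to 0.548 CPM in the TIL libraries and 13.2 to 15.2 CPM in the spleen libraries, and Gp9 at 0 in TIL. Neutrophil genes were lower for 6 of 6 tested, with sums of 0.627 to 0.823 CPM in the TIL libraries and 17.6 to 20.4 CPM in the spleen libraries, and Camp at 0 in TIL. The tested genes of both lists passed the filter on low counts through their spleen levels. A call of higher was thus hardly possible for them, and nothing is read from these counts of calls. Other lists were of mixed direction, and their counts stand beside 35.9% of all tested genes lower and 34.8% higher. NK cell genes were lower for 3 and higher for 2 of 7 tested, CD4 T cell genes were lower for 3 and higher for 1 of 5, and erythroid genes were lower for 2 and higher for 5 of 7. Melanoma genes were lower for 1 and higher for 1 of 2 tested, and the higher count was 2 without any 1 spleen library or TIL replicate 3. By DESeq2, 3 were higher. Pmel was the lower gene, and Dct the higher, with 51 counts over the TIL libraries and 1 over the spleen libraries. The filter left out Tyrp1, with 64 counts in TIL and 0 in every spleen library. It also left out Mlana (19 counts in TIL and 2 in spleen), Sox10 (16 and 2) and Tyr (5 and 2). Of the melanoma genes, Dct, Mlana, Sox10 and Tyr were named after their values were seen. Stromal and endothelial genes were lower for 1 and higher for 0 of 2 tested. The part of these cell types in the values of the 31 genes was not tested.

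**Figure D4:**
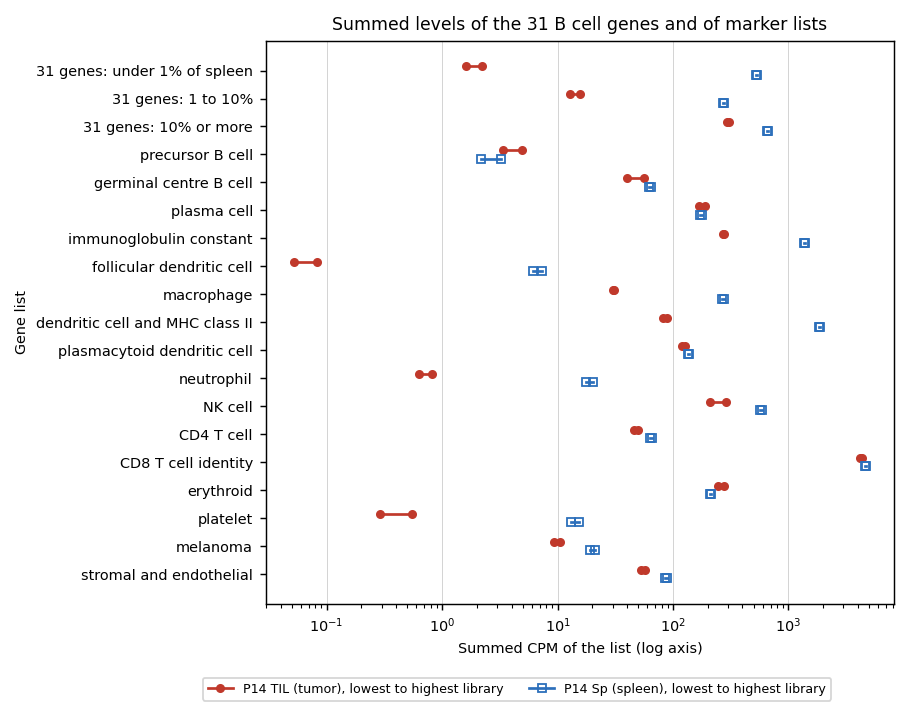
Summed level (CPM, log axis) of the 31 B cell genes in 3 bands of TIL share and of 16 marker lists, with the lowest and highest of the 3 libraries of each tissue joined by a line. The 15 genes under 1% held 1.60 to 2.22 CPM in the TIL libraries and 527 to 535 CPM in the spleen libraries, and the CD8 T cell identity genes held 4167 to 4325 CPM in the TIL libraries and 4633 to 4683 CPM in the spleen libraries.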

How the data were processed

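The authors deposited raw counts of reads per gene, without normalization, from single-read libraries made with a low-input and a stranded kit, per the labels' protocols. Per the submitters' processing notes, the tools were STAR 2.3, bcl2fastq 2.20.0.422 and featureCounts, with the mm10 build. Not given in the sources used here are the strand setting, the version of featureCounts, how multiply matching reads were handled, and which annotation release was used. Symbols and coordinates came from GENCODE release M21, which matched 54587 of 55335 identifiers with their version, and 30 of the 31 genes. Cr2 was matched without its version. All 6 columns were used.

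The titles gave each library its tissue group. Chi-square per degree of freedom of their counts was 8.38 to 30.4 for pairs of TIL libraries and 2.11 to 3.30 for pairs of spleen libraries, so no library was a copy of another. Since the labels name no separate mice, p-values reflect the spread between libraries alone, and that spread may be technical.

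Differential expression was fitted over all genes by the quasi-likelihood test of edgeR 4.0.16 (R 4.3.3), with TMM scaling and tissue as the factor, after filterByExpr at a minimum count of 10 and total of 15. The threshold was a Benjamini-Hochberg adjusted p of 0.05. Fold changes are TIL over spleen on the log2 scale, and SE is approximate. Alternatives were other scalings and filters, DESeq2 1.42.0, limma-voom (limma 3.58.1), the replicate number as a block, and leaving out each library. The procedure was also run on simulated data, in which no changed gene had very few counts. That run does not cover genes with very few counts in TIL. Floors of 3 counts and exact 95% intervals (SciPy 1.17.1) cover counting error only: no molecular identifiers are described, so reads are not independent molecules. RefSeq promoters (GRCm38.p6) gave the sequences.

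The 31 genes, the 3 pathway lists, the 16 marker lists and the rule for named genes were chosen with earlier results of these data known. All 31 genes could be named. Of each pathway list, up to 2 called genes per direction with the smallest p could be named. Of each marker list, these were the gene with the highest CPM in each tissue and genes at 0 throughout a tissue. Other genes were named after their values were seen. Of the lists, 1 gene is not reported here.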

Additional observations from a re-analysis of the deposited data

How the results depend on the processing

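Of the 31 genes, 29 were lower and 0 higher in TIL under each of the 14 alternatives that refit the test, which were the scalings, filters, tools, the replicate block and leaving out each library. With the replicate number as a block the counts were again 29 and 0, with a median log2 fold change of -5.89. Equal replicate numbers gave no evidence of pairing (deviations of same-numbered libraries correlated at -0.0084, 0.041 and 0.013), so the block stands for a shared number only. Cd83 and Pou2f2 were called under none of these settings. Higher genes of the B cell receptor pathway numbered 0 to 2 when 1 library was left out, with 2 without TIL replicate 3, and higher genes of surface and positioning numbered 0 to 1, with 0 without spleen replicate 1. Of the B cell transcription factors, 5 to 7 were then lower and 4 to 5 higher. The 5 lower were without spleen replicate 2, where Ikzf1 and Tcf3 did not pass. The 5 higher were without TIL replicate 3, where Bcl6 passed (these 3 were named after their values were seen). The cause was not tested. With TMM-effective library sizes, the summed level of the 31 genes in spleen was 1451 CPM, in place of 1466 CPM. The fitted change of Cr2, at 0 counts in TIL, moved with the tool, from -13.10 in edgeR to -12.53 in DESeq2 and -11.09 in limma-voom, and is not given as a size. Depth limits the genes under 1% of spleen, which had 81, 68 and 58 counts in all in the TIL libraries. A marker list of few tested genes changed its count with the filter, since that sets which genes are tested.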
